A study of Mus musculus with 18 samples.

Results

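The tumour necrosis factor (TNF) superfamily was examined in lung monocytes and macrophages 24 h after inhaled lipopolysaccharide (LPS). The members are the protein-coding genes of the deposited count table whose symbol starts with Tnfsf or Tnfrsf followed by a digit. There were 31 of them among the 21254 genes of the table, 11 ligands (Tnfsf) and 20 receptors (Tnfrsf). Of the receptors, 4 carry a death domain, 12 bind TRAF adaptors, 3 are decoys that bind a ligand without passing on a signal, and Tnfrsf26 has no known signalling motif. Members that carry other kinds of symbol, such as Tnf or Cd40, were counted separately as a pathway list. TNF family ligands are trimers, made as membrane proteins and often shed, and they draw receptors together in the membrane of the responding cell. Death domain receptors can start apoptosis or NF-kappaB signalling, while TRAF-binding receptors mainly feed NF-kappaB and MAP kinase pathways that keep lymphocytes and myeloid cells alive and active. Antigen-presenting cells use several of the ligands to give costimulation to T cells and survival signals to B cells.

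The samples formed 6 groups, 3 sorted populations from WT and Ezr-KOm mice, with 3 libraries each. Every adult mouse, on a C57BL/6 background, was exposed for 15 min to nebulized Pseudomonas aeruginosa LPS, and no untreated lung was among the samples used here. The nebulized solution held 12.5 mg of LPS in 5 ml PBS, and the inhaled dose is not given. Ezr-KOm mice are Ez fl/fl mice with Cx3cr1-Cre, and the WT mice carry the same Cre (B6.Cx3cr1tm1.1(cre)Jung/J) without the floxed alleles, so both genotypes share the Cre insertion. Cre is driven by the Cx3cr1 locus, which is active in monocytes and macrophages and weakly in some dendritic and natural killer cells. The moMs were sorted as CD45+CD11b+MHC-II-Ly6C+ monocyte-derived macrophages, the trIMs (transitional interstitial macrophages) as CD45+CD11b+MHC-II+Ly6C+ cells, and the matIMs, labelled tissue-resident interstitial macrophages, as CD45+CD11b+MHC-II+Ly6C- cells. The study names 3 mice per genotype as the source, without saying which libraries came from the same mouse. The populations of 1 genotype therefore share mice, and p-values measure the spread between these libraries.

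The libraries held between 16512783 and 48460995 counts in all (TMM factors 0.931 to 1.07). Ezr itself stood at 503, 593 and 497 CPM (counts scaled to a common library size) in the WT moM libraries and at 282, 159.9 and 252 in the Ezr-KOm moM libraries. In trIM it was 678, 515 and 564 CPM in WT and 234, 126 and 213 in Ezr-KOm, and in matIM 741, 632 and 610.4 against 167, 93.8 and 144. Every Ezr-KOm library was below every WT library of its population, and none lacked Ezr. By edgeR, Ezr fell by 1.20 ± 0.24 (log2, SE) in moM (adjusted p = 0.0549), by 1.62 ± 0.24 in trIM (adjusted p = 0.00365) and by 2.29 ± 0.25 in matIM (adjusted p = 7.73e-05). The sorted cells carried the monocyte and macrophage markers, but the summed CPM of that 12-gene list was lower in the MHC-II+ gates, from 28018 to 34386 in WT moM, 16663 to 22206 in WT trIM and 10586 to 11939 in WT matIM. Of the 12 genes in WT, 7 were called lower and 2 higher in matIM than in moM, and 5 lower and 2 higher in trIM than in moM. The 8 mature dendritic cell markers went the other way, from 95.6 to 132 CPM in WT moM to 645 to 854 in trIM and 6177 to 8982 in matIM, and 8 of 8 were called higher in matIM than in moM. B cell markers summed to 10.2 to 15.0 CPM in WT moM, 67.7 to 102 in trIM and 181 to 266 in matIM, with 10 of 10 called higher in matIM than in moM. Lung epithelium markers peaked in trIM, at 2485 to 4099 CPM in WT against 116 to 152 in moM and 537 to 579 in matIM, and endothelium (302 to 533 CPM) and fibroblast markers (104 to 116 CPM) were also highest there. No gene of these lists was called between genotypes at an adjusted p under 0.05. By the study's rule (unadjusted p under 0.05, log2 change past 0.75), 4 of 8 fibroblast markers were higher in Ezr-KOm moM, 1 in trIM and 2 in matIM. For all genes the shares were 1.55%, 1.08% and 1.41%. Of the 10 B cell markers, 1 was higher in moM. The fibroblast sum was 28.2 to 42.1 CPM in WT moM and 50.9 to 63.6 in Ezr-KOm moM, without overlap. The study's flow cytometry scheme takes these populations from CD11c- cells, while the labels name only CD45, CD11b, MHC-II and Ly6C. In bulk libraries of this kind, fewer cells of a type and less RNA per cell cannot be told apart.

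**Figure D1:**
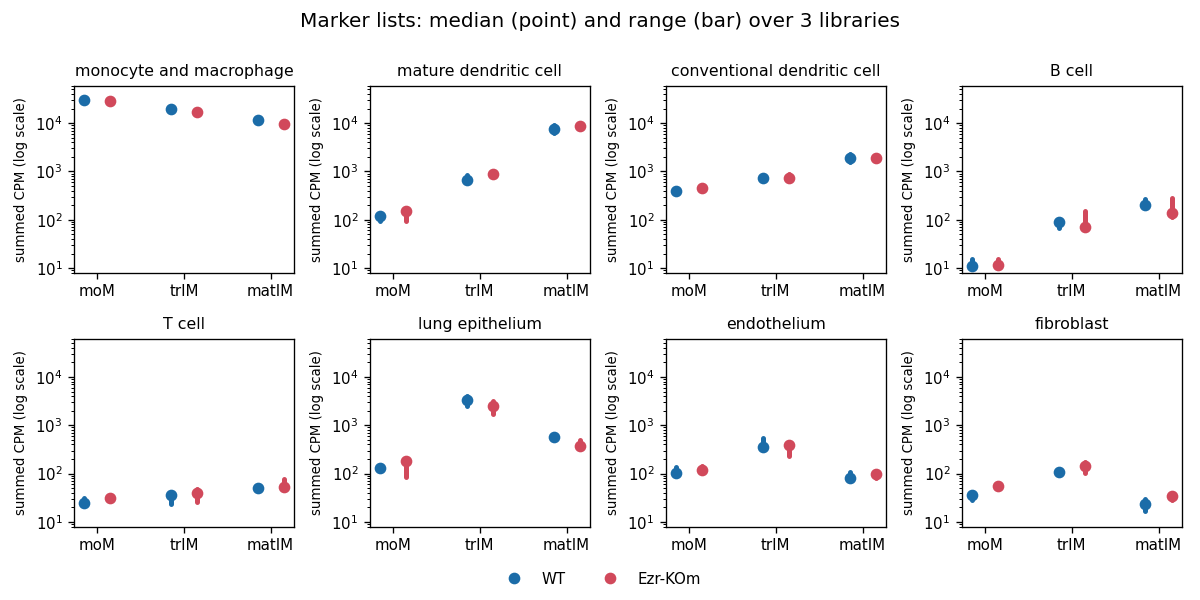
Summed CPM of 8 marker lists (log axis) in the 3 populations, with the median as a point and the range over 3 libraries as a bar, WT in blue and Ezr-KOm in red. The mature dendritic cell sum was 6177 to 8982 CPM in WT matIM and 95.6 to 132 CPM in WT moM, while the monocyte and macrophage sum fell toward matIM and the lung epithelium sum was highest in trIM.

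RefSeq gave promoter windows for 24 of the 31 members (28 windows, GRCm38.p6), and the 250 bases before each start were searched on both strands for NF-kappaB, AP-1 (TGANTCA) and ISRE (GAAA, any 2 bases, GAAA) motifs. NF-kappaB and AP-1 are the factors that LPS and TNF receptors activate, and ISRE binds interferon-induced factors. The NF-kappaB motif was present in 2 members, Tnfrsf8 and Tnfrsf9, and in 3.9% of the 32851 RefSeq windows searched. AP-1 was present in 5 members, Tnfrsf8, Tnfrsf9, Tnfsf13, Tnfsf13b and Tnfsf14, against 6.75% of all windows. ISRE was present in 4 members, Tnfrsf14, Tnfrsf17, Tnfrsf1b and Tnfsf13b, against 2.98% of all windows. A member was counted if any of its windows held the motif, while the percentages are of single windows, so the members' counts and the percentages are not directly comparable. The letters of different motifs did not overlap in any member. The window of Tnfrsf8 is printed whole because it holds both an NF-kappaB and an AP-1 match (capitals, in that order). It matched GRCm39 at chr4:145041735-145041984 on the minus strand, just before the annotated gene start, and 151 of its bases lie in an exon of the long non-coding RNA Gm69277.
Tnfrsf8: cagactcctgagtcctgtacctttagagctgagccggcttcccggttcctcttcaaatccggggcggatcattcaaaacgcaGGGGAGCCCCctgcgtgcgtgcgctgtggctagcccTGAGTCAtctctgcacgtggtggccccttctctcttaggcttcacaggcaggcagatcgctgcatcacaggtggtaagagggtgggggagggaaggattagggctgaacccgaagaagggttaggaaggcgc

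The matches are printed in capitals with up to 9 bases on each side for Tnfrsf9, which was among the members that differed most between populations, and for Tnfrsf14 and Tnfsf13b, which had the smallest p between genotypes in moM. The distance is that of the first base of the match upstream of the RefSeq start. The Tnfrsf9 window, chr4:151012206-151012455 (GRCm39, plus strand), lies inside the annotated gene, before an internal start, with 81 bases in an exon of another transcript of the gene. It held 2 overlapping NF-kappaB matches, the first 43 bases upstream, and an AP-1 match 15 bases upstream. The Tnfrsf14 match, an ISRE 64 bases upstream, has its motif letters on the strand opposite the gene, in chr4:155012535-155012784 (GRCm39, minus strand). That window lies wholly inside the annotated gene, before a start 486 bases downstream of the gene start, with 128 bases in exons of the gene. Tnfsf13b, at chr8:10056383-10056632 (GRCm39, plus strand), held AP-1 127 bases and ISRE 16 bases upstream of the second of its 2 RefSeq starts. This start lies 166 bases downstream of the annotated gene start and the last 166 bases of the window are exon, so both Tnfsf13b matches lie within an exon of the gene.
Tnfrsf9 NF-kappaB: agagcagctGGGGATTTCCCaggaggccc
Tnfrsf9 AP-1: ctgctcagtTGAGTCAcaggtcct
Tnfrsf14 ISRE: tattttttcTTTCATTTTCacttttcct
Tnfsf13b AP-1: tgtctggagTGAGTCAgtctgaacc
Tnfsf13b ISRE: acaaaaactGAAAGTGAAAtgcgga
A match is a description of the letters in these windows, and no binding was measured.

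The first comparison asked how the family differs between the 3 populations within a genotype. In matIM, the receptors Tnfrsf9, Tnfrsf4, Tnfrsf18, Tnfrsf13c, Tnfrsf17 and Tnfrsf11b and the ligands Tnfsf4, Tnfsf8 and Tnfsf15 were higher than in moM in both genotypes, while Tnfrsf1a, Tnfrsf1b, Tnfrsf21 and Tnfsf14 were lower in both. A filter on low counts left 29 members for testing (15811 genes in all), and Tnfsf11 and Tnfsf18 did not pass it. Tnfrsf17 passed it only through its matIM libraries, and the counts of called members below include it. Calls were made with edgeR's quasi-likelihood test at a Benjamini-Hochberg adjusted p under 0.05 over all genes tested. In WT, 9 members were called higher and 4 lower in matIM than in moM, where 13.4% of all genes were higher and 11.4% lower. In Ezr-KOm the same comparison called 11 members higher and 7 lower, against 12.5% and 10.7% of all genes. From moM to trIM, 8 members were higher and 3 lower in WT (all genes 13% and 8.61%), and 7 higher and 3 lower in Ezr-KOm (9.23% and 5.04%). From trIM to matIM, 8 were higher and 3 lower in WT (8.32% and 10.2%), and 9 higher and 4 lower in Ezr-KOm (8.37% and 9.85%). In all, 21 of the 29 tested members were called in at least 1 of these 6 comparisons and 8 in none. The matching share of all genes was not counted, so this number is not read as a trait of the family. The median log2 fold change of the tested members from moM to matIM was 0.23 in WT and 0.29 in Ezr-KOm, beside 0.01 over all genes in both genotypes. Libraries of the same replicate number deviated together in most comparisons. With that number as a block, the 6 counts of called members became 16, 16 and 18 in WT (moM to trIM, trIM to matIM, moM to matIM) and 13, 18 and 19 in Ezr-KOm, and the shares of all genes called in either direction rose with them, from 21.6%, 18.5% and 24.8% to 28.9%, 23.1% and 30.9% in WT and from 14.3%, 18.2% and 23.3% to 20.1%, 23.4% and 29.3% in Ezr-KOm. No member called without the block lost its call with it. Without WT moM replicate 2 the count from moM to trIM in WT fell from 11 to 7, in a fit whose share of all genes is not given here.

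**Figure D2:**
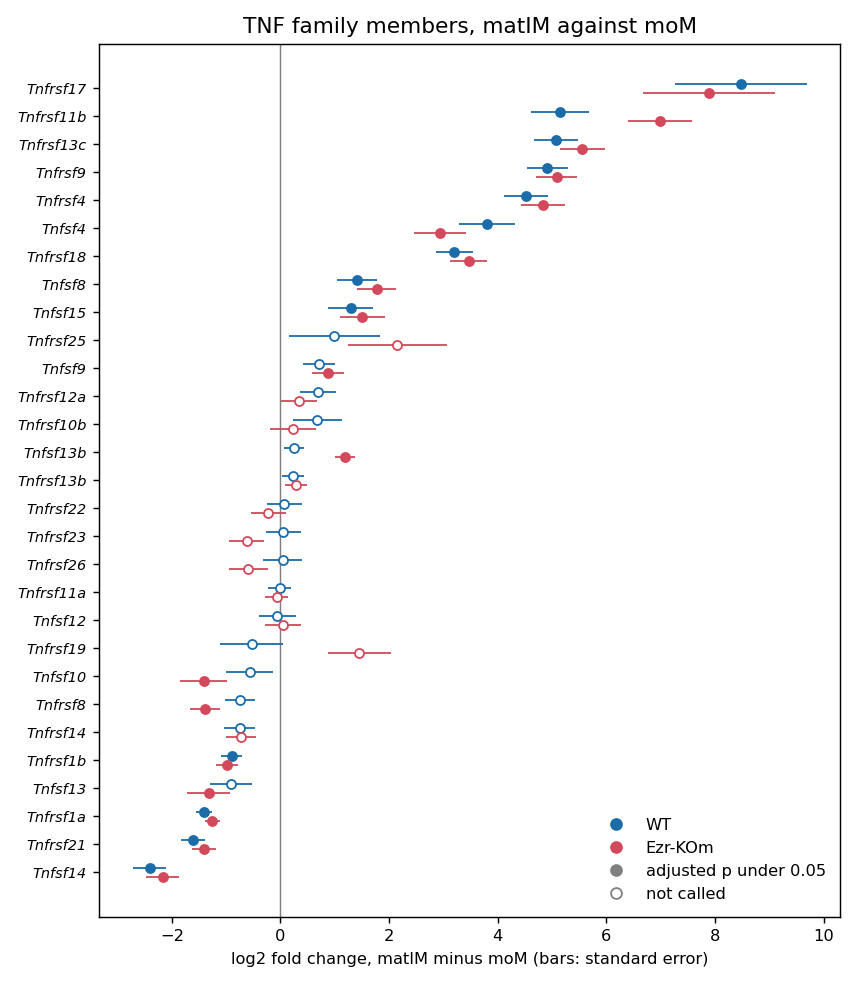
Log2 fold change from moM to matIM (x axis, matIM minus moM) of the 29 tested members, with the standard error as a bar, WT in blue and Ezr-KOm in red, filled points at an adjusted p under 0.05. The receptors at the top rose in both genotypes and Tnfsf14, Tnfrsf21, Tnfrsf1a and Tnfrsf1b at the bottom fell in both, and the point of Tnfrsf17 is a fitted value against moM libraries that had no count.

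Levels of different genes were set side by side as mean CPM per kilobase of exon (± SD, n = 3). In WT moM the order began with the ligand Tnfsf9 at 226 ± 10.9 and the TNF receptor Tnfrsf1b at 206 ± 39.9, which did not differ beyond their spread. The other TNF receptor, Tnfrsf1a, followed at 125 ± 13.2, then the death receptor Tnfrsf21 at 64.3 ± 8.38, and both of these steps were larger than the spread. The 31 members' summed CPM ranged from 1615 to 2514 over the WT libraries and from 1786 to 2666 over the Ezr-KOm libraries, and the 3 highest members made up 67.5% to 78.0% of the sum in every library. Tnfrsf11a, Tnfrsf12a, Tnfrsf13b and Tnfsf14 formed a middle tier in WT moM, from 11.8 ± 3.06 to 28.2 ± 4.31 per kilobase. In WT matIM, Tnfrsf9 had moved from 0.803 ± 0.138 to 24.1 ± 6.39 per kilobase and Tnfrsf4 from 0.510 ± 0.144 to 11.7 ± 0.495, while Tnfsf14 had moved from 20.3 ± 4.76 to 3.83 ± 1.12. At the low end, Tnfsf11 (RANKL, the osteoclast ligand) and Tnfsf18 (the ligand of Tnfrsf18) had 0 to 0.587 and 0 to 0.212 CPM over all 18 libraries, 0 to 16 and 0 to 8 counts. Tnfsf11 had 3, 1 and 0 counts in WT moM and 6, 7 and 9 in WT matIM, groups that did not overlap. Its WT matIM mean was 2.18 times a floor of 3 counts per moM library, a ratio from few counts with no test. In Ezr-KOm, Tnfsf11 had 4, 8 and 7 counts in moM and 16, 7 and 14 in matIM, and the CPM values overlapped.

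Among the ligands, Tnfsf4 (OX40L, which costimulates T cells through Tnfrsf4) and Tnfsf8 (CD30L, which binds Tnfrsf8) were highest in matIM. In WT, Tnfsf4 measured 0.683, 0.373 and 0.197 CPM in the 3 moM libraries, 0.918, 0.507 and 0.744 in trIM and 7.94, 5.04 and 4.02 in matIM. In Ezr-KOm it measured 1.04, 1.35 and 0.397 CPM in the 3 moM libraries, 0.914, 0.958 and 1.23 in trIM and 11.8, 4.27 and 5.53 in matIM. The matIM libraries lay above all others of their genotype, and the log2 fold change from moM to matIM was 3.80 ± 0.52 (SE) in WT (adjusted p = 2.41e-05) and 2.94 ± 0.47 in Ezr-KOm (adjusted p = 0.00014). The moM and trIM libraries overlapped in both genotypes. Tnfsf8 stood at 1.31, 0.953 and 0.709 CPM in the 3 moM libraries, 1.25, 1.84 and 1.53 in trIM and 2.04, 2.56 and 3.20 in matIM for WT. The Ezr-KOm values of Tnfsf8 were 1.91, 0.848 and 0.749 CPM in the 3 moM libraries, 2.91, 1.96 and 1.99 in trIM and 4.55, 3.75 and 3.69 in matIM. It rose from moM to matIM by 1.41 and 1.77 on the log2 scale (adjusted p = 0.00794 and 0.00118), with no overlap between the moM and matIM libraries. The WT call of Tnfsf8 was lost without WT moM replicate 3 (adjusted p = 0.0576).

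Tnfsf15 (TL1A, the ligand of Tnfrsf25) was higher in matIM than in moM. WT libraries held 3.64, 1.62 and 1.61 CPM in the 3 moM libraries, 7.34, 3.30 and 7.41 in trIM and 5.90, 4.91 and 5.78 in matIM. The values in Ezr-KOm were 2.09, 1.66 and 4.05 CPM in the 3 moM libraries, 6.19, 2.97 and 7.67 in trIM and 9.36, 6.61 and 6.16 in matIM. The matIM libraries were above the moM libraries in both genotypes, with log2 fold changes of 1.29 ± 0.42 (adjusted p = 0.0312) and 1.51 ± 0.42 (adjusted p = 0.0119). The step from moM to trIM was called in WT (1.42 ± 0.42, adjusted p = 0.0215) and, in Ezr-KOm, with the block and not without it (1.10 ± 0.41, adjusted p = 0.0873 without it and 0.0249 with it). The WT call from moM to matIM was lost without WT moM replicate 2, WT moM replicate 3, WT matIM replicate 1, WT matIM replicate 2 or WT matIM replicate 3 (adjusted p = 0.0523 to 0.139). The WT call from moM to trIM was lost without WT moM replicate 2, WT moM replicate 3, WT trIM replicate 1 or WT trIM replicate 3 (adjusted p = 0.0583 to 0.099). The Ezr-KOm call was lost without Ezr-KOm moM replicate 1, Ezr-KOm moM replicate 2 or Ezr-KOm matIM replicate 1 (adjusted p = 0.051 to 0.0671).

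Tnfsf9 (4-1BBL, the ligand of Tnfrsf9) was abundant everywhere, at 311, 307 and 284 CPM in the 3 moM libraries, 302, 392 and 220.1 in trIM and 501, 564 and 406 in matIM for WT. In Ezr-KOm, Tnfsf9 was 389.8, 431 and 231 CPM in the 3 moM libraries, 487, 486 and 214 in trIM and 635, 831 and 471 in matIM. The matIM libraries lay above the moM libraries in both genotypes, by 0.71 ± 0.29 in WT (adjusted p = 0.089) and 0.88 ± 0.29 in Ezr-KOm (adjusted p = 0.0358). The Ezr-KOm call of Tnfsf9 was lost without WT moM replicate 1, WT moM replicate 2, WT moM replicate 3, Ezr-KOm moM replicate 1, Ezr-KOm moM replicate 3, WT trIM replicate 1, WT matIM replicate 1, WT matIM replicate 2, Ezr-KOm matIM replicate 1 or Ezr-KOm matIM replicate 2 (adjusted p = 0.0507 to 0.199). With the replicate number as a block, Tnfsf9 was called from trIM to matIM in WT and Ezr-KOm (adjusted p = 0.00388 and 0.00293) and from moM to matIM in WT (adjusted p = 0.00449).

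Tnfsf14 (LIGHT, which binds Tnfrsf14 and the lymphotoxin beta receptor) was the ligand that fell most toward matIM. Its WT values were 48.4, 35.9 and 30.9 CPM in the 3 moM libraries, 14.3, 12.6 and 11.3 in trIM and 9.67, 5.94 and 6.07 in matIM. In the Ezr-KOm libraries they were 47.8, 28.8 and 29.4 CPM in the 3 moM libraries, 16.9, 7.82 and 12.4 in trIM and 10.8, 6.47 and 6.29 in matIM. All moM libraries lay above all trIM and matIM libraries of their genotype, and replicate 1 was highest in each of the 6 groups. The log2 fold change of Tnfsf14 from moM to matIM was -2.41 ± 0.31 in WT (adjusted p = 9.73e-06) and -2.17 ± 0.30 in Ezr-KOm (adjusted p = 2.92e-05). Most of the fall lay between moM and trIM, and the further step to matIM was called with the block and not without it (adjusted p = 0.000988 in WT and 0.00766 in Ezr-KOm).

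Tnfsf10 (TRAIL, the ligand of the death receptor Tnfrsf10b and of the decoys Tnfrsf22 and Tnfrsf23) was lower in matIM than in trIM in both genotypes. It stood in WT at 5.58, 4.43 and 5.59 CPM in the 3 moM libraries, 9.47, 6.72 and 15.2 in trIM and 2.00, 2.86 and 5.63 in matIM. For Ezr-KOm the values were 14.4, 4.78 and 8.33 CPM in the 3 moM libraries, 8.81, 7.68 and 15.0 in trIM and 4.66, 2.27 and 3.40 in matIM. The trIM and matIM libraries did not overlap, and the log2 fold change was -1.58 ± 0.43 in WT (adjusted p = 0.0134) and -1.61 ± 0.43 in Ezr-KOm (adjusted p = 0.0117). From moM to matIM it fell in Ezr-KOm (-1.41 ± 0.43, adjusted p = 0.0214), and the WT estimate was -0.56 ± 0.43 (adjusted p = 0.385). The WT call from trIM to matIM was lost without WT trIM replicate 3, WT matIM replicate 1 or WT matIM replicate 2 (adjusted p = 0.0541 to 0.0625). The same call in Ezr-KOm was lost without Ezr-KOm trIM replicate 3 or Ezr-KOm matIM replicate 2 (adjusted p = 0.0503 to 0.0666). The Ezr-KOm call from moM to matIM was lost without Ezr-KOm moM replicate 1, Ezr-KOm matIM replicate 2 or Ezr-KOm matIM replicate 3 (adjusted p = 0.0548 to 0.152). With the block, Tnfsf10 was also called higher in WT trIM than in WT moM (adjusted p = 0.0369).

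Tnfsf13 (APRIL), a ligand of Tnfrsf13b and Tnfrsf17, measured 4.38, 5.01 and 5.43 CPM in the 3 moM libraries, 5.84, 4.76 and 2.98 in trIM and 2.48, 3.37 and 2.05 in matIM for WT. In Ezr-KOm it was 4.18, 4.59 and 5.16 CPM in the 3 moM libraries, 3.37, 8.02 and 3.09 in trIM and 1.11, 2.92 and 1.51 in matIM. Its fall from moM to matIM was called in Ezr-KOm (-1.32 ± 0.39, adjusted p = 0.0187), and the WT estimate was -0.91 ± 0.39 (adjusted p = 0.0974, and 0.0348 with the block). From trIM to matIM it also fell in Ezr-KOm (-1.39 ± 0.39, adjusted p = 0.0159). The call against moM was lost without Ezr-KOm moM replicate 3, Ezr-KOm matIM replicate 1 or Ezr-KOm matIM replicate 3 (adjusted p = 0.0539 to 0.0836). The call against trIM was lost without Ezr-KOm trIM replicate 2, Ezr-KOm matIM replicate 1 or Ezr-KOm matIM replicate 3 (adjusted p = 0.0619 to 0.186). Counts of Tnfsf13 and Tnfsf12 are uncertain, since the read-through gene Tnfsfm13 shares 65.7% and 52.4% of their exon bases on the same strand.

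Tnfsf13b (BAFF, the B cell survival factor) was called between populations in Ezr-KOm and not in WT. WT libraries had 10.1, 9.86 and 10.3 CPM in the 3 moM libraries, 8.51, 9.26 and 9.76 in trIM and 10.2, 11.6 and 14.1 in matIM, and the WT moM and matIM libraries overlapped (0.25 ± 0.18 on the log2 scale, adjusted p = 0.369). Ezr-KOm libraries had 5.87, 4.86 and 6.65 CPM in the 3 moM libraries, 7.89, 8.02 and 6.10 in trIM and 12.7, 11.4 and 15.3 in matIM. Here each matIM library lay above each moM library, with a log2 fold change of 1.18 ± 0.19 (adjusted p = 0.000109). The difference between the genotypes in this step was 0.94 ± 0.26, with an unadjusted p of 0.002 and an adjusted p of 1, so it was not called.

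Of the 4 death domain receptors, Tnfrsf1a (TNFR1, the ubiquitous TNF receptor) and Tnfrsf21 (DR6) fell from moM to matIM. Tnfrsf1a was measured in WT at 347, 421 and 417 CPM in the 3 moM libraries, 216, 199 and 200.03 in trIM and 149, 149 and 152 in matIM. The Ezr-KOm libraries had 379.5, 345 and 396 CPM in the 3 moM libraries, 171, 245 and 226 in trIM and 142, 146 and 183 in matIM. Its WT groups followed each other without overlap, moM above trIM above matIM. The log2 fold change from moM to matIM was -1.40 ± 0.15 in WT (adjusted p = 8.42e-07) and -1.25 ± 0.14 in Ezr-KOm (adjusted p = 3.35e-06). The last step alone, from trIM to matIM, was -0.45 ± 0.14 in WT (adjusted p = 0.0317) and -0.45 ± 0.14 in Ezr-KOm (adjusted p = 0.0342). The WT call of this step was lost without WT trIM replicate 1, WT matIM replicate 1, WT matIM replicate 2 or WT matIM replicate 3 (adjusted p = 0.0541 to 0.0822). The Ezr-KOm call of this step was lost without Ezr-KOm trIM replicate 2, Ezr-KOm trIM replicate 3, Ezr-KOm matIM replicate 1 or Ezr-KOm matIM replicate 2 (adjusted p = 0.0548 to 0.173).

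Tnfrsf21 stood at 244, 288 and 317 CPM in the 3 moM libraries, 107, 116 and 137 in trIM and 67.0, 95.5 and 114 in matIM for WT. For Ezr-KOm it was 232, 226 and 319 CPM in the 3 moM libraries, 103, 139 and 182 in trIM and 79.1, 105 and 109.6 in matIM. Its moM libraries lay above the trIM and matIM libraries of their genotype, with -1.62 ± 0.22 (adjusted p = 2.63e-05) and -1.40 ± 0.22 (adjusted p = 0.000113) from moM to matIM. Its log2 fold change from moM to trIM was -1.24 ± 0.22 in WT (adjusted p = 0.000554) and -0.87 ± 0.22 in Ezr-KOm (adjusted p = 0.0103). The latter call was lost without Ezr-KOm moM replicate 3 (adjusted p = 0.062). Replicate 3 had the highest Tnfrsf21 in all 6 groups, and with the number as a block the step from trIM to matIM was called too (adjusted p = 0.0209 in WT and 0.00438 in Ezr-KOm).

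Tnfrsf10b, the mouse TRAIL death receptor, ranged from 0.394 to 1.82 CPM over all libraries. In WT it measured 0.626, 0.746 and 0.394 CPM in the 3 moM libraries, 1.63, 1.46 and 1.37 in trIM and 1.06, 0.683 and 1.08 in matIM, and the trIM libraries were above the moM libraries (1.33 ± 0.45, adjusted p = 0.0407). This call was lost without WT moM replicate 1, WT moM replicate 2, WT moM replicate 3, WT trIM replicate 1, WT trIM replicate 2, WT trIM replicate 3 or Ezr-KOm matIM replicate 1 (adjusted p = 0.0502 to 0.161). The Ezr-KOm values, 1.09, 1.54 and 0.485 CPM in the 3 moM libraries, 0.956, 1.82 and 0.890 in trIM and 1.40, 0.894 and 1.38 in matIM, overlapped between populations. Tnfrsf25 (DR3, the receptor of Tnfsf15) was called in no comparison and ranged from 0.0569 to 1.43 CPM.

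**Figure D3:**
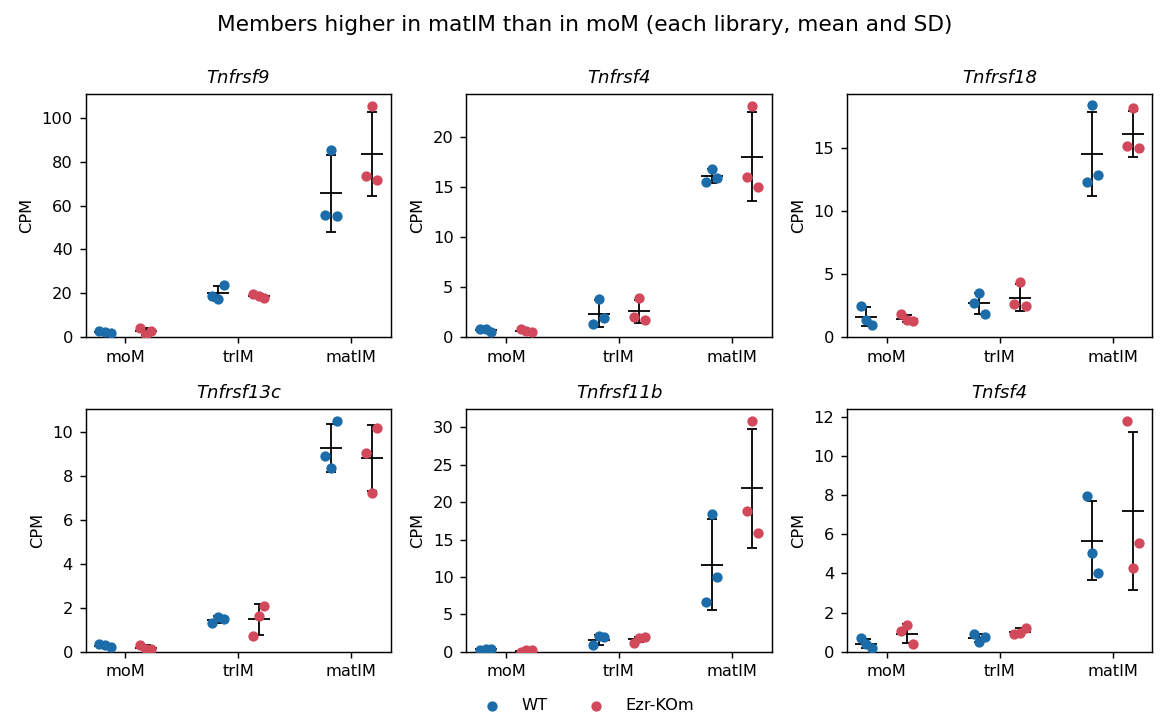
CPM (y axis, from 0) of 6 members in each library by population, WT in blue and Ezr-KOm in red, with the mean and SD of 3 libraries. In each panel every matIM library lay above every moM and trIM library of its genotype, for Tnfrsf9 at 55.4 CPM or more in WT matIM.

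The TRAF-binding receptors that costimulate T cells, Tnfrsf9 (4-1BB), Tnfrsf4 (OX40) and Tnfrsf18 (GITR), rose together toward matIM. Tnfrsf9 had the values 2.50, 2.28 and 1.77 CPM in the 3 moM libraries, 18.9, 17.3 and 23.7 in trIM and 55.7, 85.7 and 55.4 in matIM in WT. In Ezr-KOm, Tnfrsf9 had 4.18, 0.771 and 2.51 CPM in the 3 moM libraries, 19.8, 18.5 and 17.9 in trIM and 73.4, 106 and 72.0 in matIM. The 3 populations did not overlap in either genotype, and Tnfrsf9 was 30.2-fold higher in matIM than in moM in WT (log2 4.91 ± 0.38, adjusted p = 2.9e-08) and 33.9-fold higher in Ezr-KOm (log2 5.08 ± 0.38, adjusted p = 1.64e-08). From moM to trIM alone the log2 fold change was 3.20 ± 0.37 in WT (adjusted p = 8.7e-06) and 2.93 ± 0.36 in Ezr-KOm (adjusted p = 2.82e-05).

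Tnfrsf4 measured 0.797, 0.829 and 0.472 CPM in the 3 moM libraries, 1.25, 3.80 and 1.88 in trIM and 15.5, 16.8 and 15.8 in matIM for WT. The Ezr-KOm libraries of Tnfrsf4 read 0.783, 0.578 and 0.529 CPM in the 3 moM libraries, 2.04, 3.87 and 1.74 in trIM and 15.9, 23.1 and 15.0 in matIM. It was 23.0-fold higher in matIM than in moM in WT (log2 4.52 ± 0.40, adjusted p = 1.32e-07) and 28.4-fold higher in Ezr-KOm (adjusted p = 5.93e-08), again with no overlap. For Tnfrsf18, WT libraries had 2.45, 1.37 and 0.984 CPM in the 3 moM libraries, 2.67, 3.49 and 1.80 in trIM and 12.3, 18.4 and 12.9 in matIM. Its Ezr-KOm values were 1.78, 1.35 and 1.23 CPM in the 3 moM libraries, 2.58, 4.33 and 2.46 in trIM and 15.1, 18.2 and 15.0 in matIM. Here matIM stood apart from the other populations, with 9.22-fold (log2 3.20 ± 0.34, adjusted p = 9.47e-07) and 11.0-fold (adjusted p = 3.68e-07) more than in moM. The trIM libraries were called above moM in Ezr-KOm (1.12 ± 0.33, adjusted p = 0.0272), while in WT they overlapped (0.74 ± 0.34, adjusted p = 0.128). The Ezr-KOm trIM call was lost without Ezr-KOm moM replicate 2, Ezr-KOm moM replicate 3 or Ezr-KOm trIM replicate 2 (adjusted p = 0.0854 to 0.186). Of the exon bases of Tnfrsf18, 35.9% are shared with Gm16008 on the other strand, and the strand setting of the counts is not given in the sources used here. Beside these receptors, the mature dendritic cell sum was 95.6 to 132 CPM in WT moM and 6177 to 8982 CPM in WT matIM, and T cell markers summed to 24.0 to 31.5 CPM in WT moM and 49.7 to 55.1 in matIM, with 4 of 10 called higher. The part of such cells in the result was not tested.

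Tnfrsf1b (TNFR2, the receptor for membrane-bound TNF) was the most abundant receptor per kilobase and fell toward matIM. It read 792, 1115 and 1151 CPM in the 3 moM libraries, 666, 662 and 960.0 in trIM and 476, 544 and 618 in matIM for WT. Ezr-KOm libraries read 1058, 1243 and 1365 CPM in the 3 moM libraries, 680.2, 897 and 1113 in trIM and 549, 685 and 612 in matIM. The moM and matIM libraries did not overlap, and the log2 fold change was -0.90 ± 0.20 in WT (adjusted p = 0.00228) and -0.99 ± 0.20 in Ezr-KOm (adjusted p = 0.00109). With the block, both smaller steps were called as well in both genotypes, with adjusted p from 0.00504 to 0.0186. Tnfrsf8 (CD30), the receptor of Tnfsf8, measured 9.45, 6.46 and 8.19 CPM in the 3 moM libraries, 6.51, 6.28 and 8.70 in trIM and 3.90, 4.74 and 5.74 in matIM in WT. In Ezr-KOm it was 18.4, 12.4 and 9.34 CPM in the 3 moM libraries, 16.5, 9.30 and 8.90 in trIM and 5.34, 5.06 and 4.86 in matIM. It fell from moM to matIM in Ezr-KOm (-1.39 ± 0.27, adjusted p = 0.000908), and the WT estimate was -0.74 ± 0.28 (adjusted p = 0.0585, and 0.0416 with the block). From trIM to matIM it also fell in Ezr-KOm (-1.18 ± 0.27, adjusted p = 0.00437). In Ezr-KOm matIM its ligand Tnfsf8 was higher and Tnfrsf8 lower than in moM.

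**Figure D4:**
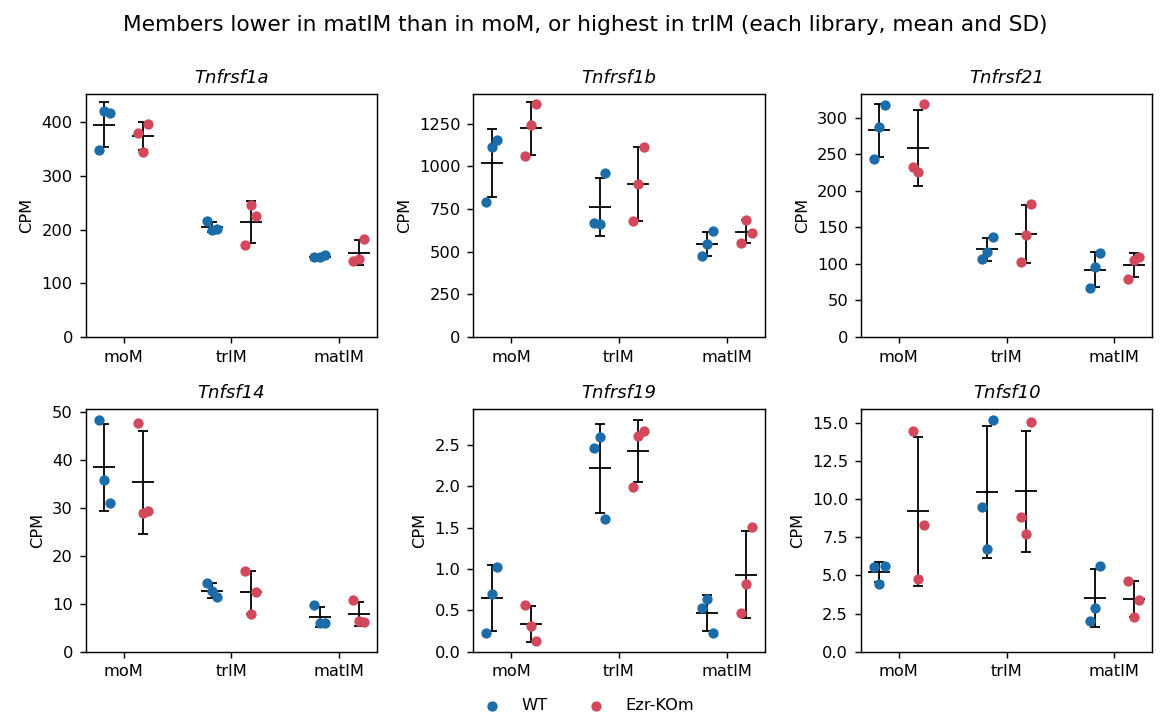
CPM (y axis, from 0) of 6 members in each library by population, WT in blue and Ezr-KOm in red, with the mean and SD of 3 libraries. Tnfrsf1a, Tnfrsf1b, Tnfrsf21 and Tnfsf14 were lower in matIM than in moM, while Tnfrsf19 had its highest libraries in trIM, at 1.61 to 2.67 CPM.

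Tnfrsf19 (TROY, known from epithelial stem cells and neurons) was highest in trIM. WT libraries had 0.228, 0.704 and 1.02 CPM in the 3 moM libraries, 2.46, 2.60 and 1.61 in trIM and 0.532, 0.641 and 0.224 in matIM. In Ezr-KOm the values were 0.565, 0.309 and 0.132 CPM in the 3 moM libraries, 1.99, 2.61 and 2.67 in trIM and 0.466, 0.826 and 1.51 in matIM. All trIM libraries lay above all moM and matIM libraries of their genotype. From moM to trIM it rose by 1.72 ± 0.54 in WT (adjusted p = 0.0288) and 2.84 ± 0.57 in Ezr-KOm (adjusted p = 0.00222), and from trIM to matIM it fell in WT (-2.25 ± 0.56, adjusted p = 0.00705), with an estimate of -1.38 ± 0.52 in Ezr-KOm (adjusted p = 0.0748). The WT rise was lost without WT moM replicate 1, WT moM replicate 2, WT trIM replicate 1 or WT trIM replicate 2 (adjusted p = 0.0716 to 0.105). The lung epithelium sum was also highest in trIM, 116 to 152, 2485 to 4099 and 537 to 579 CPM in WT moM, trIM and matIM, with 6 of 8 markers called higher in trIM than in moM and 5 lower in matIM than in trIM. The fibroblast sum was 28.2 to 42.1, 104 to 116 and 16.8 to 29.1 CPM in the same groups. Their part in the Tnfrsf19 result was not tested.

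BAFF and APRIL have 3 receptors on B lineage cells, Tnfrsf13c (BAFF receptor), Tnfrsf13b (TACI) and Tnfrsf17 (BCMA). Tnfrsf13c measured 0.342, 0.290 and 0.197 CPM in the 3 moM libraries, 1.29, 1.59 and 1.49 in trIM and 8.91, 8.37 and 10.5 in matIM for WT. The Ezr-KOm libraries had 0.304, 0.116 and 0.132 CPM in the 3 moM libraries, 0.706, 1.64 and 2.08 in trIM and 9.04, 7.22 and 10.2 in matIM. The 3 populations were apart in both genotypes, and Tnfrsf13c was 33.6-fold higher in matIM than in moM in WT (log2 5.07 ± 0.40, adjusted p = 3.37e-08) and 47.1-fold higher in Ezr-KOm (adjusted p = 1.66e-08). Tnfrsf17 had no count in any of the 6 moM libraries. In matIM it reached 1.82, 1.92 and 1.53 CPM in WT and 2.01, 1.07 and 0.419 in Ezr-KOm. By edgeR it was called higher in matIM than in moM in WT (adjusted p = 0.000115) and in Ezr-KOm (adjusted p = 0.000238). Tnfrsf17 passed the filter on low counts only through its matIM libraries, so its p-values against moM and trIM are no separate support for its rise. The matIM mean of Tnfrsf17 was 12.7 times a floor of 3 counts per moM library in WT and 9.23 times in Ezr-KOm. In trIM it had 1 to 7 counts per library, that is 0.0417, 0.317 and 0.0784 CPM in WT and 0.291, 0.0998 and 0.127 in Ezr-KOm, and the fitted calls against moM rest on these few counts (adjusted p = 0.0467 and 0.0318). The WT call was lost without WT moM replicate 1, WT moM replicate 2, WT moM replicate 3, WT trIM replicate 2, Ezr-KOm trIM replicate 3, WT matIM replicate 1, WT matIM replicate 2, WT matIM replicate 3 or Ezr-KOm matIM replicate 2 (adjusted p = 0.0551 to 0.162). The Ezr-KOm call was lost without Ezr-KOm moM replicate 1, Ezr-KOm moM replicate 2, Ezr-KOm moM replicate 3 or Ezr-KOm trIM replicate 1 (adjusted p = 0.0707 to 0.091). From trIM to matIM the adjusted p was 0.00272 in WT and 0.011 in Ezr-KOm. The latter call was lost without Ezr-KOm trIM replicate 2 or Ezr-KOm matIM replicate 1 (adjusted p = 0.0624 to 0.0787).

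Tnfrsf13b was present in every library, at group means of 21.0 to 35.9 CPM per kilobase beside 0.0895 to 4.50 for Tnfrsf13c and 0 to 1.88 for Tnfrsf17. Its WT values were 71.4, 94.2 and 94.5 CPM in the 3 moM libraries, 55.6, 66.8 and 71.5 in trIM and 103, 103 and 98.6 in matIM. For Ezr-KOm they were 67.9, 103 and 101 CPM in the 3 moM libraries, 56.2, 68.2 and 95.8 in trIM and 94.8, 102 and 135 in matIM. Its lowest group mean was in trIM, and it rose from there to matIM by 0.65 ± 0.20 in WT (adjusted p = 0.0279) and 0.59 ± 0.20 in Ezr-KOm (adjusted p = 0.0468), the latter with overlapping libraries. The WT call of Tnfrsf13b was lost without WT trIM replicate 1, WT trIM replicate 2, WT matIM replicate 1, WT matIM replicate 2 or WT matIM replicate 3 (adjusted p = 0.054 to 0.114). The Ezr-KOm call of Tnfrsf13b was lost without WT moM replicate 2, WT moM replicate 3, Ezr-KOm moM replicate 2, Ezr-KOm moM replicate 3, WT trIM replicate 1, WT trIM replicate 2, WT trIM replicate 3, Ezr-KOm trIM replicate 1, Ezr-KOm trIM replicate 2, WT matIM replicate 1, WT matIM replicate 2, WT matIM replicate 3, Ezr-KOm matIM replicate 2 or Ezr-KOm matIM replicate 3 (adjusted p = 0.0504 to 0.242). B cell markers rose beside Tnfrsf13c and Tnfrsf17, to 181 to 266 CPM in WT matIM from 10.2 to 15.0 in moM, with Cr2 at 0 in the WT moM libraries. Tnfrsf17 is itself a plasma cell marker, and the other 5 markers of that list summed to 752 to 893 CPM in WT moM and 862 to 1073 in WT matIM. Mzb1 of that list was at 0 in the moM libraries of both genotypes. Of the 6 with Tnfrsf17, 4 were called higher and 0 lower in matIM than in moM in WT, and 4 higher and 1 lower in Ezr-KOm. Their median log2 fold change from moM to matIM was 6.61 in WT and 6.57 in Ezr-KOm. The part of B lineage cells in these results was not tested.

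The decoy receptor Tnfrsf11b (osteoprotegerin, a secreted trap for Tnfsf11 and Tnfsf10) had the highest estimated log2 fold change between moM and matIM among the members with counts in both. It measured 0.228, 0.331 and 0.394 CPM in the 3 moM libraries, 0.876, 2.09 and 1.92 in trIM and 6.61, 18.4 and 9.99 in matIM for WT. In Ezr-KOm it measured 0, 0.231 and 0.264 CPM in the 3 moM libraries, 1.21, 1.80 and 1.95 in trIM and 18.8, 30.9 and 15.8 in matIM. The groups followed each other without overlap, and from moM to matIM it was 35.4-fold higher in WT (log2 5.15 ± 0.54, adjusted p = 8.88e-07) and higher by 6.99 ± 0.59 on the log2 scale in Ezr-KOm (adjusted p = 5.8e-08), the latter against a moM group of 0 to 6 counts per library. The other decoys, Tnfrsf22 and Tnfrsf23, bind TRAIL and lie side by side with Tnfrsf26 on chromosome 7. They were present at 3.00 to 7.98 and 2.72 to 10.3 CPM over the 18 libraries and Tnfrsf26 at 7.17 to 28.3 CPM, and none of the 3 was called in a population comparison. With the block, Tnfrsf26 was lower in matIM than in trIM in both genotypes (adjusted p = 0.0348 and 0.0296), and higher in trIM than in moM in WT (adjusted p = 0.0276). Reads of these related neighbours may be split between them, so their values are uncertain.

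The remaining members called in no population comparison were Tnfrsf11a (RANK, the receptor of Tnfsf11), Tnfrsf12a (Fn14, the receptor of Tnfsf12), Tnfsf12 (TWEAK), Tnfrsf14 and Tnfrsf25. Tnfrsf11a was at 84.6 to 154 CPM in every library, with a log2 fold change from moM to matIM of -0.02 in WT (95% interval -0.47 to 0.44) and -0.07 in Ezr-KOm (-0.52 to 0.38). Tnfrsf12a ranged from 16.9 to 53.8 CPM, and replicate 1 was the highest library in all 6 groups. With the block, Tnfrsf12a was higher in trIM than in moM in both genotypes (adjusted p = 0.00588 and 0.0184) and in matIM than in moM in WT (adjusted p = 0.00187). All exon bases of Tnfrsf12a are shared with Hcfc1r1 on the other strand, so its counts are uncertain. Tnfsf12 stood at 3.43 to 11.8 CPM. Tnfrsf14 had log2 fold changes from moM to matIM of -0.75 and -0.72, called in both genotypes with the block and in neither without it (adjusted p = 0.011 and 0.00922).

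On chromosome 4, between 130 and 160 Mb, lie 7 members (Tnfrsf1b, Tnfrsf8, Tnfrsf9, Tnfrsf25, Tnfrsf14, Tnfrsf4 and Tnfrsf18), and Tnfrsf12a lies on chromosome 17 between 0 and 30 Mb. The second comparison, Ezr-KOm against WT within each population, asked whether loss of ezrin alters the family. The receptor Tnfrsf14 (HVEM, which binds Tnfsf14 and the inhibitory receptor BTLA) had the same order of genotypes in all 3 populations. In moM it measured 13.2, 6.05 and 9.80 CPM in WT and 22.8, 16.3 and 20.6 in Ezr-KOm. In trIM the values were 7.13, 4.25 and 9.68 against 16.6, 13.3 and 15.9, and in matIM 5.19, 4.66 and 7.30 against 12.5, 10.6 and 13.0. All Ezr-KOm libraries lay above all WT libraries of their population. The log2 fold change was 1.05 ± 0.28 in moM, 1.11 ± 0.28 in trIM and 1.07 ± 0.28 in matIM, with unadjusted p of 0.00148, 0.000971 and 0.00136 and adjusted p of 0.34, 0.319 and 0.379. Replicate 2 had the lowest Tnfrsf14 in all 6 groups. With the replicate number as a block, whose same-numbered libraries correlated at 0.102 to 0.316 in these comparisons, Tnfrsf14 was called in all 3 populations (adjusted p = 0.0184, 0.0124 and 0.0223), where the block called 0.266%, 0.215% and 0.24% of all genes and 2.76%, 1.53% and 1.84% of those on chromosome 4 between 130 and 160 Mb. The 3 populations of a genotype share mice, so these are not 3 independent results.

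**Figure D5:**
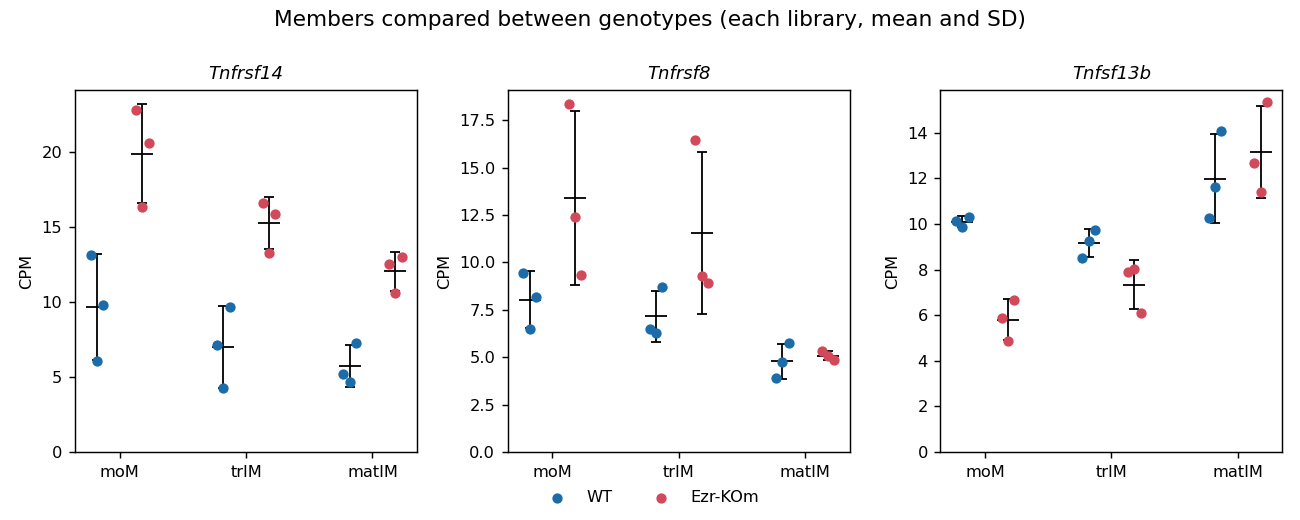
CPM (y axis, from 0) of Tnfrsf14, Tnfrsf8 and Tnfsf13b in each library by population, WT in blue and Ezr-KOm in red, with the mean and SD of 3 libraries. For Tnfrsf14 every Ezr-KOm library lay above every WT library of its population, for Tnfsf13b the Ezr-KOm libraries lay below the WT libraries in moM and trIM, and for Tnfrsf8 the genotypes were apart in trIM alone.

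No member reached an adjusted p under 0.05 between genotypes without the block in any population, where 0.171% of all genes did in moM, 0.164% in trIM and 0.152% in matIM. At an unadjusted p under 0.05 there were 4, 2 and 2 members (3.74%, 3.24% and 3.84% of all genes), and DESeq2 called Tnfsf13b in moM and Tnfrsf14 in trIM, where it called 0.348% of all genes in each, more than edgeR did. The authors called genes at p below 0.05 before adjustment and a log2 change past 0.75 in either direction, and by that rule the members were 2 higher and 1 lower in moM (all genes 1.55% and 0.961%), 1 higher and 0 lower in trIM (all genes 1.08% and 0.759%) and 2 higher and 0 lower in matIM (all genes 1.41% and 0.987%). Left-out libraries moved these counts, to 6 in moM without WT moM replicate 1 and to 5 without Ezr-KOm moM replicate 1 or 3, to 2 in trIM without WT replicate 3 or Ezr-KOm replicate 2 or 3, and to 1 in matIM without WT replicate 1 or 3. The shares of all genes in those fits are not given here. Tnfrsf14 met the rule in all 3 populations. Tnfsf13b met it in moM, at 10.1, 9.86 and 10.3 CPM in WT against 5.87, 4.86 and 6.65 in Ezr-KOm, without overlap (-0.80 ± 0.19, adjusted p = 0.159 by edgeR and 0.0086 by DESeq2). In trIM the groups of Tnfsf13b were also apart, with an estimate of -0.32 ± 0.18 (adjusted p = 1), and in matIM they overlapped.

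Tnfsf4 met the rule in moM (1.21 ± 0.54, adjusted p = 1 by edgeR) and Tnfrsf11b in matIM (0.91 ± 0.40, adjusted p = 1 by edgeR), both with overlapping libraries. Tnfrsf8 fell just outside it, at 9.45, 6.46 and 8.19 CPM in WT moM against 18.4, 12.4 and 9.34 in Ezr-KOm moM (0.74 ± 0.27, adjusted p = 1 by edgeR). In trIM its values were 6.51, 6.28 and 8.70 against 16.5, 9.30 and 8.90 (0.68 ± 0.27), and in matIM the estimate was 0.08 ± 0.28. The paper lists CD30 (Tnfrsf8) among survival genes altered in Ezr-KOm macrophages, citing its moM and trIM comparisons. Of the 8 members in the 2 intervals, only Tnfrsf14 met the rule. The other 6 on chromosome 4 had estimates in moM of 0.26 (Tnfrsf1b), 0.74 (Tnfrsf8), 0.18 (Tnfrsf9), -1.18 (Tnfrsf25), -0.14 (Tnfrsf4) and -0.11 (Tnfrsf18), and Tnfrsf12a on chromosome 17 had 0.35. In these intervals, 10.1% (moM), 8.28% (trIM) and 7.36% (matIM) of the 326 tested genes of the chromosome 4 interval met the rule in either direction, and 13.1%, 12.1% and 12.8% of the 297 of the chromosome 17 interval, against 2.51%, 1.83% and 2.4% of all genes. The part of the interval in the Tnfrsf14 result was not tested.

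The third comparison asked whether the genotype effect differs between populations. No member and no gene was called by edgeR at an adjusted p under 0.05, with 3 members at an unadjusted p under 0.05 (268 of all genes, 1.7%) for matIM against moM and none for the other pairs (1.47% and 1.16% of all genes). The 3 were Tnfsf13b, Tnfrsf19 (1.98 ± 0.82) and Tnfrsf11b (1.84 ± 0.84), all with an adjusted p of 1 in the edgeR fit.

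The TNF family genes with other symbols were read from a list of 15, of which 13 were tested. From moM to matIM in WT, 6 were higher and 1 lower (all genes 13.4% and 11.4%), and the median log2 fold change was 0.02 beside 0.01 over all genes. In Ezr-KOm the counts were again 6 higher and 1 lower (all genes 12.5% and 10.7%), and the median was 1.12 beside 0.01. Gene by gene, the difference between the genotypes in this step had a median of -0.01 over the 13 tested, and none was called. The costimulatory ligand Cd70 had no count in the moM libraries of either genotype and a mean of 3.93 ± 0.78 CPM (SD, n = 3) in WT matIM. In WT, the nerve growth factor receptor Ngfr rose by 7.17 ± 0.76 (adjusted p = 1.05e-06) and the lymphotoxin subunit Ltb by 2.25 ± 0.38 (adjusted p = 0.000191). Ltbr, the lymphotoxin beta receptor that Tnfsf14 also binds, fell in WT (-0.90 ± 0.17, adjusted p = 0.000584). Tnf itself averaged 484 ± 153 CPM in WT moM, 774 ± 229 in trIM and 490.4 ± 178 in matIM and was called in no comparison between populations or genotypes.

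All 33 listed TNF receptor adaptors and signalling genes were tested. From moM to matIM in WT, 7 were higher and 5 lower (all genes 13.4% and 11.4%), with a median log2 fold change of -0.10 beside 0.01 over all genes. In Ezr-KOm 7 were higher and 6 lower (all genes 12.5% and 10.7%), with a median of -0.08. The higher ones in WT included Relb, the partner of Nfkb2 in non-canonical NF-kappaB signalling (1.46 ± 0.14, adjusted p = 2.67e-07), the adaptor Traf4 (2.39 ± 0.29, adjusted p = 5.59e-06) and the ubiquitin ligase Birc2 (1.54 ± 0.22, adjusted p = 3.72e-05). The lower ones in WT included the kinases Map3k5 (-1.14 ± 0.15, adjusted p = 1.95e-05) and Ripk1 (-0.62 ± 0.13, adjusted p = 0.00173) and the ubiquitin ligase Birc3 (-0.70 ± 0.13, adjusted p = 0.000435). Between genotypes, no gene of either list was called in any population by edgeR. By the study's rule, 1 of the other TNF family genes was higher in each population (all genes 1.55%, 1.08% and 1.41%), and 0 of the adaptors met the rule.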

How the data were processed

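Bulk RNA-seq was measured in 18 libraries of sorted mouse lung cells (SMART-Seq v4 cDNA, Nextera XT libraries). The authors aligned reads to GRCm39 with STAR 2.7.9a and deposited raw gene counts, in a table of genes with a count in at least 3 libraries. Which strand column was counted is not given in the sources used here. Totals per library were 16512783 to 48460995 counts. A count of 0 allows up to 3 counts, and floors cover only the counting error of the low group. Standard errors of log2 fold changes were worked back from the edgeR test, as the absolute log2 fold change over the square root of its F statistic. The 95% intervals were built from them and include the spread between libraries. Both are approximate, most of all at low counts.

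Groups came from the labels. Counts of 15811 genes (filterByExpr) were fitted with edgeR 4.0.16 (R 4.3.3, TMM, quasi-likelihood) in 1 model of 6 groups, with Benjamini-Hochberg adjustment. The script was tested on simulated data. Members called in any comparison are given in every library, and for pathway lists the 3 genes with the smallest p per direction. Members and lists were chosen with earlier results of these data known. P-values measure the spread between these samples. CPM used TMM library sizes, and levels per kilobase used exon lengths of Gencode vM39. The labels give the groups the same replicate numbers. Deviations of same-numbered libraries correlated above 0.1 in every genotype comparison (0.102 to 0.316), and from moM to trIM and from trIM to matIM (0.169 to 0.397), but down to 0.0947 in WT and 0.0905 in Ezr-KOm from moM to matIM. Alternatives were DESeq2 1.42.0, its size factors, library totals, other filters, separate fits, blocks and left-out libraries. Promoter sequences are RefSeq's (GRCm38.p6), placed on GRCm39 by exact match.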

Additional observations from a re-analysis of the deposited data

How the results depend on the processing

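Counts of called members moved beyond 1.5 times under these settings, and the cause was not tested except where noted. The share of all genes called is given above for the replicate number block and for DESeq2 between genotypes. It is not given for the other settings, so these counts are not read as particular to the family. When each library had to hold at least 10 counts of a gene (fewer genes tested), 7 members (11 in the report) were called from moM to trIM in WT, 6 (11) from trIM to matIM in WT, 6 (10) from moM to trIM in Ezr-KOm, and 1 (2) met the study's rule in matIM. DESeq2 called 1 member between genotypes in moM and 1 in trIM (0 in the report). The replicate block called 1 in moM, 1 in trIM and 1 in matIM (0 in the report), and with the mouse as a block (number within genotype) the population counts were 16, 16 and 18 in WT and 14, 19 and 21 in Ezr-KOm. The block ended no call of a member. Over fits that left out 1 library, the counts ranged from 7 to 11, 8 to 12 and 11 to 15 in WT (moM to trIM, trIM to matIM, moM to matIM), from 8 to 10, 9 to 16 and 16 to 19 in Ezr-KOm, from 0 to 0 between genotypes, and by the study's rule from 2 to 6 in moM, 1 to 2 in trIM and 1 to 3 in matIM. The estimate of Tnfrsf8 between genotypes in matIM turned from 0.08 to -0.0255 without WT matIM replicate 1, and ranged from -0.0255 to 0.234 over the fits that left out a library. Among single members' calls, 2 were lost with library totals, 3 with no filter and 5 with only the compared groups fitted. Library totals shifted the median of all genes by 0.13 (log2) from moM to matIM in Ezr-KOm and by 0.10 in WT, and no member's direction turned. Members under about 1 CPM, such as Tnfrsf17, Tnfsf11 and Tnfsf18, are limited by depth.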

Other observations

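Libraries of the same replicate number shared more than the groups explain for several members. Tnfrsf12a and Tnfsf14 were highest in replicate 1 in 6 of 6 groups and Tnfrsf21 in replicate 3 in 6 of 6, while Tnfsf9 was lowest in replicate 3 and Tnfrsf14 in replicate 2 in 6 of 6. What a replicate number stands for is not stated in the sources used here.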
